A study of Homo sapiens with 4 samples.

Results

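Axon guidance cues and their receptors were followed in 2 lists of H3K27ac peaks from the human neuroblastoma line SK-N-BE(2)C. The genes were taken by symbol from the protein-coding genes of GENCODE release 44 on chromosomes 1 to 22, as semaphorins of classes 3 to 7 (SEMA3 to SEMA7), plexins (PLXN), neuropilins (*NRP1*, *NRP2*), ephrins (EFNA, EFNB), Eph receptors (EPHA, EPHB), slits (*SLIT1* to *SLIT3*), roundabout receptors (ROBO), netrins (*NTN1*, *NTN3*, *NTN4*, NTNG) and netrin receptors (UNC5, *DCC*, *NEO1*). The rule found 71 of 19111 genes. Of these, 69 belong to the 10 ligand and receptor groups, while *UNC50* and *UNC5CL* were taken in by the letters of their symbols and are not known as netrin receptors. *EFNA4-EFNA3* is a read-through gene that shares its window with *EFNA4* and *EFNA3*. A peak was assigned to a gene when it overlapped the gene body or the 10 kb on either side of it.

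Both groups were SK-N-BE(2)C cells that had been transfected with Cas9 and guide RNAs, selected with puromycin and expanded from sorted single cells. The sgCtrl cells carried a non-targeting control gRNA and are labelled wildtype. The sgSNHG1 cells carried *SNHG1* gRNA and are labelled *SNHG1* knockout, although the paper states that expression was repressed and the knockout not complete. *SNHG1* is a long non-coding RNA gene that hosts small nucleolar RNAs. Each group had 2 ChIP-seq samples, whose reads the authors combined before peak calling, so there is 1 list per group and no spread between replicates. Every difference below is therefore a difference between 2 lists, described with 95% intervals that cover counting error only, and a difference between clones cannot be told apart from the effect of the guide RNAs.

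Guidance cues steer growing axons and migrating cells, including the neural crest cells from which sympathetic neurons and neuroblastoma arise. Secreted class 3 semaphorins act through neuropilins and plexins, and membrane-bound semaphorins mostly through plexins alone. Ephrins signal to Eph receptors at cell contacts and can signal back into the cell that carries them. Slits act through roundabout receptors, and netrins through *DCC*, *NEO1* and the UNC5 receptors. H3K27ac, acetylation of lysine 27 on histone H3, marks active promoters and enhancers, so a peak at a guidance gene speaks of its regulatory DNA and not of its RNA or protein.

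The sgCtrl list held 63051 peaks on chromosomes 1 to 22 and the sgSNHG1 list 49412, a ratio of 0.784 (0.775 to 0.793). The depth per sample is unknown, but the lowest background that the peak caller used was 4.893 fragments for sgCtrl and 4.658 for sgSNHG1. Peaks lay within 3 kb of a start site at 8 of 8 adrenergic neuroblastoma markers in both lists. Among mesenchymal markers this held for 4 of 6 in sgCtrl and 5 of 6 in sgSNHG1, with *PRRX1* at 0 in both, and among blood and liver markers for 1 of 5 and 0 of 5.

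The windows of the 71 genes held 443 different sgCtrl peaks and 323 different sgSNHG1 peaks. The ratio was 0.729 (0.632 to 0.842), and its interval includes the 0.784 of all peaks. With both lists at equal size, keeping the peaks with the highest −log10 p, the ratio was 0.961. Peaks at the start sites of the guidance genes were nearly as many in both lists, 110 and 102 (ratio 0.927, 0.708 to 1.21), close to the 0.923 of all peaks at protein-coding start sites. Peaks at no start site of any gene numbered 310 and 203, a ratio of 0.655 (0.549 to 0.782), beside 0.717 (0.706 to 0.727) for all such peaks. Within the genes, exon peaks numbered 90 and 50 (ratio 0.556, 0.393 to 0.785), intron peaks 184 and 131 (0.712, 0.569 to 0.891) and flank peaks 59 and 40 (0.678, 0.454 to 1.01). The difference in number thus lay away from the start sites, in the guidance genes as in the whole lists, and the 0.717 of all peaks at no start site lay inside the interval of the guidance genes.

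**Figure D1:**
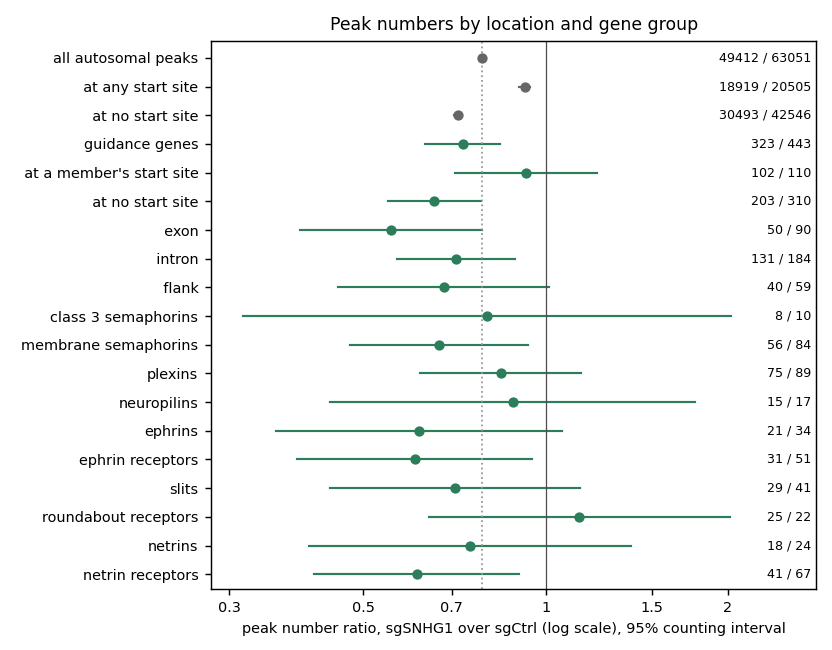
Ratio of peak numbers, sgSNHG1 over sgCtrl, on a log axis for all autosomal peaks (grey) and for the guidance genes by location and by group (green), with 95% counting intervals as bars and the 2 peak numbers at the right (sgSNHG1 before sgCtrl). The dotted line is the ratio of all peaks, 0.784, which lies inside the interval of each of the 10 groups, and the roundabout receptors, with 25 and 22 peaks, are the only group with a ratio above 1.

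Of the 65 genes with a peak in either list, 42 had fewer peaks in sgSNHG1, 9 had more and 14 had the same number. Over all protein-coding genes with a peak, 46.1% had fewer and 18.1% more. Guidance genes are long, with a median of 82469 bp against 27877 bp, so that their windows have more room for intron and exon peaks. Per 100 kb of window they held 2.76 peaks in sgCtrl and 2.01 in sgSNHG1, against 4.10 and 3.31 for all genes, but this order depends on length. In genes of up to 20 kb the guidance genes held more, 12.3 and 8.92 against 8.73 and 7.45, as they did from 20 to 100 kb, 14.8 and 10.4 against 5.37 and 4.32. Over 100 kb they held fewer, 1.36 and 1.03 against 2.32 and 1.78. By 5 or more peaks 10 genes had fewer, namely *UNC5C*, *SLIT3*, *UNC5A*, *SEMA4B*, *SEMA4D*, *PLXNA2*, *EPHB2*, *EPHA2*, *EPHB3* and *EFNA2*, and by 3 or more peaks 2 genes had more, *EPHA6* and *ROBO2*. Genes of this list that the rules for naming do not cover were picked after their values were seen. The cutoffs differ, 5 for fewer and 3 for more peaks, so the 10 and the 2 are not comparable. Neither cutoff was counted over all genes.

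**Figure D2:**
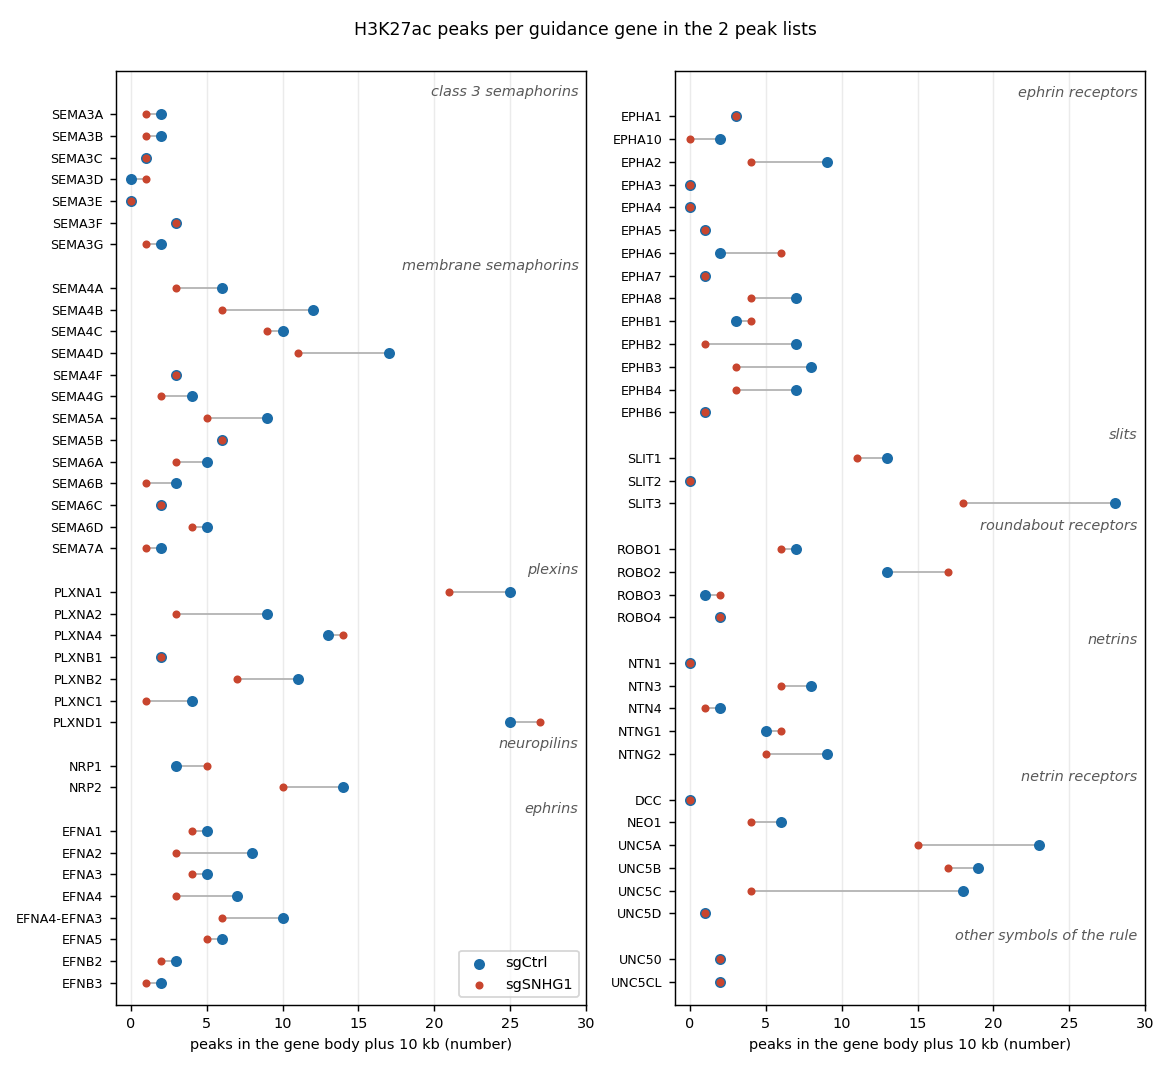
Number of peaks in the gene body plus 10 kb of each of the 71 genes, by group, in the sgCtrl list (large blue points) and the sgSNHG1 list (small red points), with a grey line between them. The longest lines belong to *UNC5C* (18 and 4 peaks) and *SLIT3* (28 and 18), all 8 ephrin genes have their red point to the left, and *SLIT2*, *NTN1*, *DCC*, *EPHA3*, *EPHA4* and *SEMA3E* are at 0 in both lists.

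Among the ligands, class 3 semaphorins carried few peaks. The 7 genes held 10 peaks in sgCtrl and 8 in sgSNHG1. *SEMA3F*, a secreted ligand that binds *NRP2*, was the only one with a start-site peak in both lists, and its 3 peaks in each list had highest fold enrichments of 4.53 and 4.11. Fold enrichment is the number of fragments at the summit over the local background, as the peak caller gives it. *SEMA3A*, the classical repellent ligand of *NRP1*, had no peak at a start site. Its highest peak lay in an intron, 45793 bp from the gene start in sgCtrl, with a fold enrichment of 5.77 in sgCtrl and 4.07 in sgSNHG1, and with 33 and 22 fragments at the summit. The log2 ratio of -0.51 had a counting interval from -1.28 to 0.27. *SEMA3E*, a ligand of *PLXND1*, had no peak in either list.

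The 13 membrane semaphorins (SEMA4 to SEMA7) all carried peaks, 84 in sgCtrl and 56 in sgSNHG1 (ratio 0.667, 0.475 to 0.935). Of the 13, 10 had fewer peaks in sgSNHG1 and 0 had more, against 46.1% and 18.1% of all genes with a peak. A lower highest peak was found at 9, where 46% of all genes with a peak in both lists had a lower and 54% a higher one. *SEMA4D*, a ligand of *PLXNB1*, had 17 and 11 peaks, of which 8 in sgCtrl and 2 in sgSNHG1 overlapped no peak of the other list. All 9 of its shared peaks had fewer summit fragments in sgSNHG1, as had 66.2% of all shared peaks and 77.2% of those at guidance genes, counted without a correction for depth. *SEMA6C* had 2 peaks in each list. The higher one, over an exon near the end of the gene, had 177 fragments and a fold enrichment of 6.11 in sgCtrl against 92 fragments and 4.47 in sgSNHG1. Its log2 ratio of -0.45 (-0.82 to -0.09) was the only one among the highest peaks of the guidance genes whose counting interval lay below 0, against 2.66% of all genes.

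Ephrins, the membrane-bound ligands of Eph receptors, had fewer peaks in sgSNHG1 at 8 of 8 genes, against 46.1% of all genes with a peak. They held 34 different peaks in sgCtrl and 21 in sgSNHG1 (ratio 0.618, 0.359 to 1.06). They also had a lower highest fold enrichment at 8 of 8, against 46% of all genes, with a median log2 ratio of -0.16. These 8 are not independent, since *EFNA3*, *EFNA4* and *EFNA4-EFNA3* lie close together on chromosome 1 and share peaks. *EFNA1* lies near them but shares no peak with them. Each single interval of the log2 ratio included 0. Peak numbers were 5 and 4 at *EFNA1* and *EFNA3*, 6 and 5 at *EFNA5*, 3 and 2 at *EFNB2* and 2 and 1 at *EFNB3*. The gaps were wider at the others. *EFNB2*, a ligand of *EPHB4*, went from 10.3 in sgCtrl to 8.27 in sgSNHG1 (log2 ratio -0.32, -0.82 to 0.18), and *EFNA5* from 8.49 in an intron to 7.90 at its start site, which are different peaks. The highest *EFNA1* peak, 4.12 and 3.76, was also at the start site of *DPM3*.

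Slits, secreted repellents, were uneven. *SLIT3* had the most sgCtrl peaks of all 71 genes, 28 against 18 in sgSNHG1, and 14 of the 28 overlapped no sgSNHG1 peak. Its start-site peak was higher in sgSNHG1, 10.1 against 8.84 (log2 ratio 0.20, -0.20 to 0.60), while 10 of its 14 shared peaks were lower in sgSNHG1. Over all shared peaks the median log2 ratio was -0.03, and the share that was lower was not counted. The neighbouring 2 Mb on either side of the *SLIT3* window held 34 peaks in both lists. *SLIT1* had 13 and 11 peaks, the highest an intron peak of 4.32 in sgCtrl and a start-site peak of 4.26 in sgSNHG1, and *SLIT2* had none.

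Netrins, which attract or repel axons depending on the receptor, had 24 and 18 peaks. *NTN1*, the founding member, had no peak in either list over its gene of 222491 bp, although its neighbouring 2 Mb held 74 and 80. *NTNG1*, a membrane-anchored netrin, carried one of the highest peaks, 11.9 in sgCtrl and 11.2 in sgSNHG1, at its start site, with 96 and 139 fragments. *NTN3*, a gene of under 3 kb in a gene-dense region, had 8 and 6 peaks. Its highest peak, with the summit at -3226 bp from the gene start in sgCtrl, went from 5.47 to 6.41 (log2 ratio 0.23, -0.02 to 0.48). Within the gene body the highest fold enrichment was 2.70 in sgCtrl and 2.16 in sgSNHG1.

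Among the receptors, plexins had a start-site peak in both lists at every gene. The 7 genes held 89 and 75 peaks, 7.35 and 6.19 per 100 kb of window. *PLXND1* had 25 and 27 peaks, *PLXNA1* 25 and 21, and *PLXNA4* 13 and 14. At *PLXND1*, *PLXNA1* and *PLXNB2* the local background of the peak caller in sgCtrl reached 92.7, 96.2 and 72.6 fragments, against the lowest background of 4.893, and the median fold enrichments of these genes were 2.31, 2.06 and 2.23. At the other 4 plexins it reached at most 20.1 fragments, with medians from 3.28 to 4.32. All 18 shared peaks of *PLXNA1* had fewer fragments in sgSNHG1, as had 66.2% of all shared peaks, counted without a correction for depth. The highest fold enrichment of *PLXNA1* went from 5.01 to 5.98 (log2 ratio 0.26, 0.01 to 0.50), with 276 and 247 fragments. This was the only highest peak whose counting interval lay above 0, against 6.05% of all genes, and over the genome-wide background the same peak had a log2 ratio of -0.10. *PLXNC1*, a receptor of *SEMA7A*, had 4 peaks in sgCtrl and 1 in sgSNHG1.

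Neuropilins, the co-receptors of class 3 semaphorins, had 17 and 15 peaks. *NRP2* had 14 and 10 peaks and a start-site peak of 6.62 and 7.43. *NRP1* had 3 and 5, with a start-site peak of 5.36 and 5.54.

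Eph receptors included many genes without a start-site peak. Of 14 genes, 6 had a start-site peak in both lists, and 6 had none in either, namely *EPHA1*, *EPHA2*, *EPHA3*, *EPHA4*, *EPHA5* and *EPHA7*. The 14 genes held 51 peaks in sgCtrl and 31 in sgSNHG1 (ratio 0.608, 0.389 to 0.95). *EPHB2* went from 7 peaks to 1. Its start-site peak stayed, 5.32 and 4.92, and the 6 intron peaks of the sgCtrl list, with fold enrichments from 2.37 to 3.60, had no counterpart. *EPHB3* had 8 and 3 peaks and *EPHB4* 7 and 3. *EPHA1* itself carried no start-site peak, and its highest peak, 8.13 and 8.56, was at the start site of the neighbouring gene *ZYX*.

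Roundabout receptors read slits, and the highest sgCtrl peaks of the set were at *ROBO1* and *ROBO2*, while *ROBO3* and *ROBO4* had low ones. *ROBO1* (chromosome 3, 78597239 to 79767998) reached 13.2 in sgCtrl and 11.1 in sgSNHG1 at one of its start sites, inside the annotated gene, with 153 and 116 fragments. *ROBO2* (chromosome 3, 75906695 to 77649964) reached 13.2 and 12.9 at such an inner start site, with 81 fragments in each list. *ROBO2* was also the longest gene of the set and had more peaks in sgSNHG1, 17 against 13. Of these, 5 in sgCtrl and 9 in sgSNHG1 overlapped no peak of the other list. At the 8 shared *ROBO2* peaks the fold enrichment was lower in sgSNHG1 at 7, and at the 5 shared *ROBO1* peaks at 5. The share with lower fold enrichment was not counted over all shared peaks, whose median log2 ratio was -0.03. *ROBO3* went from 1 to 2 peaks, and its highest fold enrichment from 3.03 to 3.87 (log2 ratio 0.35, -0.15 to 0.85). These are different peaks, and the sgSNHG1 peak that overlaps the sgCtrl peak of *ROBO3* had 2.84.

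Netrin receptors had 67 and 41 peaks (ratio 0.612, 0.415 to 0.903). In sgSNHG1, 38 of the 41 overlapped an sgCtrl peak, while 36 of the 67 sgCtrl peaks overlapped an sgSNHG1 peak. *UNC5A* had 23 and 15 peaks, *UNC5B* 19 and 17, and their start-site peaks were high, 8.22 and 8.85 at *UNC5A* and 11.5 and 9.84 at *UNC5B*. *UNC5C* (chromosome 4, 95162504 to 95549206, minus strand) had the widest gap of the set, 18 against 4. Its start-site peak had 195 fragments over a local background of 27.7 in sgCtrl and 124 over 16.9 in sgSNHG1, with fold enrichments of 6.82 and 6.99. This peak lies just before the gene, and within the gene body alone the log2 ratio of the highest peaks was -0.51. The 14 peaks without counterpart were all inside the gene, with fold enrichments between 3.11 and 5.89. Around *UNC5C*, the 2 Mb on either side held 23 peaks in sgCtrl and 4 in sgSNHG1. Around *EPHA5*, the other guidance gene on the long arm of chromosome 4, they held 11 and 1. The part of this regional difference in the *UNC5C* values was not tested. Without *UNC5C* and *EPHA5* the ratio of peak numbers over all guidance genes was 0.75 (0.649 to 0.867). *DCC*, the receptor that gives netrin attraction, had no peak over 1195703 bp of gene.

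**Figure D3:**
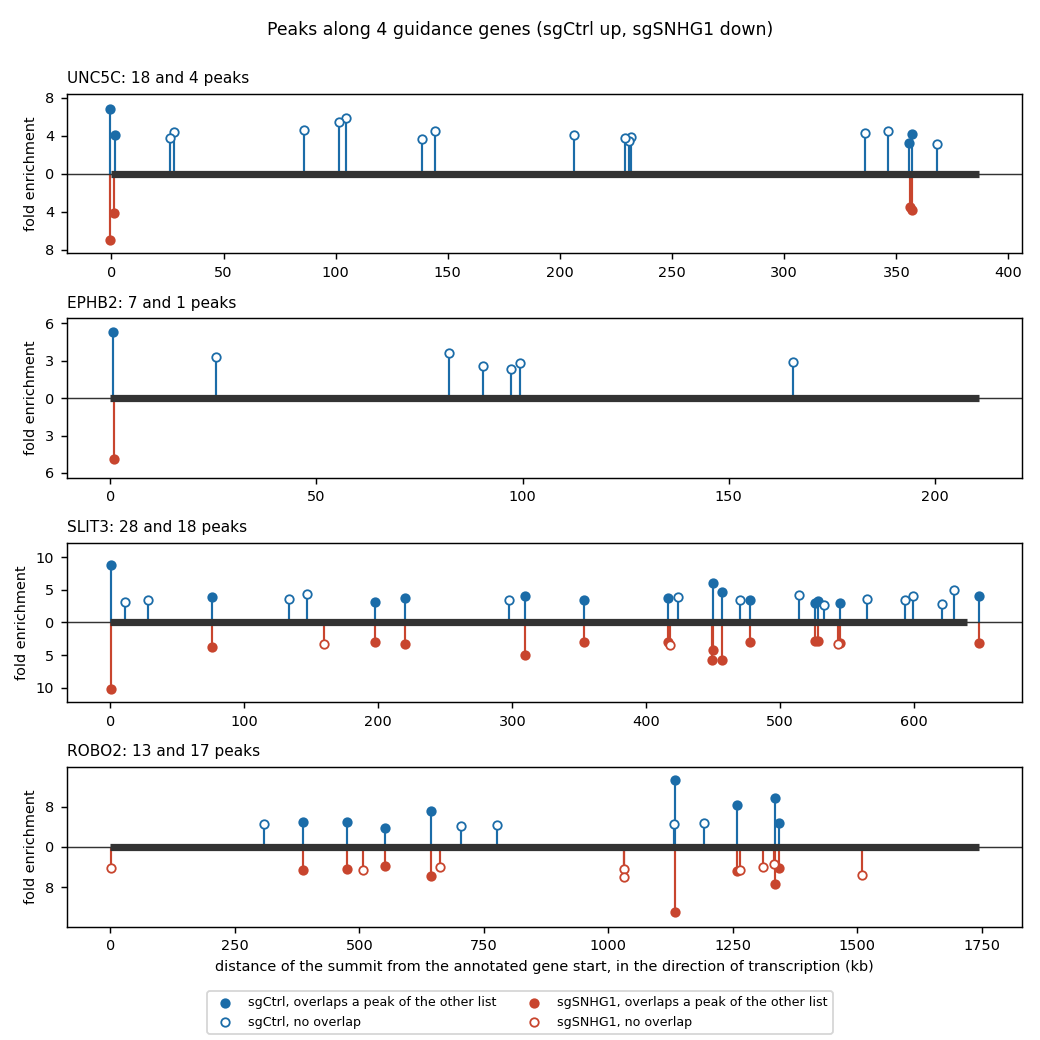
Fold enrichment of each peak against the distance of its summit from the annotated gene start in kb, along *UNC5C*, *EPHB2*, *SLIT3* and *ROBO2* (sgCtrl upwards in blue, sgSNHG1 downwards in red), with the gene body as a thick line and open circles for peaks that overlap no peak of the other list. *UNC5C* and *EPHB2* keep their start-site peaks and have open blue circles along the body, *SLIT3* has 14 open blue and 3 open red circles, and *ROBO2* has 5 open blue and 9 open red circles with its highest peaks at an inner start site.

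Start sites were mostly in the same state in both lists. Of the 71 genes, 51 had a start-site peak, meaning one no farther than 3 kb from the start of a protein-coding transcript, in both lists (71.8%, against 64.4% of all genes), and 12 had none in either (16.9% against 27.4%). Among genes over 100 kb the shares with none were 29.4% and 22.2%. Only in sgCtrl it was found at 6 genes (background 4.93% of all genes), and only in sgSNHG1 at 2 (background 3.18%). The 6 were *SEMA3B*, *SEMA3G*, *SEMA4G*, *SEMA6B*, *EPHA10* and *ROBO4*, which makes 4 semaphorins. Their start-site peaks were low. The fold enrichments were 3.02 at *SEMA3B*, 2.76 at *SEMA3G*, 3.16 at *SEMA4G*, 3.14 at *SEMA6B* and 3.47 at *ROBO4*, with 27 to 50 fragments at the summit, all below the median of the sgCtrl list, 3.75. *EPHA10* was the exception, with 4.92 and 28 fragments, and it was also the only gene with window peaks (2) in sgCtrl and none in sgSNHG1. The −log10 p was 8.01 at *SEMA3B*, 9.90 at *SEMA3G*, 7.69 at *SEMA4G* and 7.84 at *SEMA6B*. All 4 are below 10, while *EPHA10* had 13.0 and *ROBO4* 14.1. The *SEMA3G* and *SEMA6B* peaks lay 2968 and 2801 bp from the nearest start. *ROBO4*, a roundabout receptor of blood vessels, lies beside *ROBO3* and shares peaks with it. The 2 genes with a start-site peak only in sgSNHG1 were *SEMA3D* (fold enrichment 4.24, 23 fragments) and *EPHA8* (3.19, 37 fragments). *SEMA3D* had no sgCtrl peak in its window, and the nearest one lay 236630 bp from its start-site peak.

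The 6 genes with no peak in either list were *SEMA3E*, *EPHA3*, *EPHA4*, *SLIT2*, *NTN1* and *DCC*. They are 8.45% of the guidance genes, against 16.7% of all genes. All 6 are over 100 kb long, and in that length class the order is the other way, 17.6% of 34 guidance genes without a peak against 10.4% of 3507 genes. A low level of RNA cannot be read from this, as only the mark was measured.

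The RefSeq promoter sequences, 250 bases before to 50 after the start (GRCh38), matched 60 of the 71 genes. Among the guidance genes without a start-site peak, 8 of 10 promoters had an observed-to-expected CpG ratio of at least 0.6, which is 80%, against 29.0% of 3718 promoters of all genes without such a peak. With a start-site peak it was 74% of 50 guidance promoters, against 80.1% of 10898. The GC box GGGCGG, searched on both strands, was in 75% of the guidance promoters and in 59.7% of all promoters, CACGTG, bound by MYC family factors, in 6.67% and 8.76%, and TGACTCA or TGAGTCA, the AP-1 motif, in 0% and 3.67%.

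The highest peak of each gene was compared next. In sgCtrl it lay at a start site of the gene itself at 35 of 64 genes and in sgSNHG1 at 41 of 64. At 6 and 9 genes it was also at the start of another gene. The highest fold enrichment ranged from 2.84 to 13.2 in sgCtrl, with a median of 5.34, and from 3.04 to 12.9 in sgSNHG1, with a median of 4.96, below the medians over all genes, 6.48 and 6.84. Ligands had medians of 5.51 and 4.26 and receptors of 5.17 and 5.33.

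For the 63 genes with a peak in both lists, the median log2 ratio of the highest fold enrichment was -0.07, with 25 higher and 38 lower in sgSNHG1, against a median of 0.02 over all genes, of which 46% were lower. By 1.5-fold or more, 0 of 63 were higher (background 1.73%) and 1 was lower (background 1.62%), *NTN4*. Ligands had a median log2 ratio of -0.13, with 9 of 32 higher, and receptors of 0.03, with 16 of 29 higher. The 5 genes with the lowest log2 ratio were *NTN4* (-0.62), *UNC5CL* (-0.54), *SEMA3A* (-0.51), *SEMA6C* (-0.45) and *EPHA5* (-0.41). For *NTN4* different peaks were compared, an intron peak of 5.96 in sgCtrl and the start-site peak of 3.89 in sgSNHG1, and the start-site peak of *NTN4* in sgCtrl was 4.24. The 5 genes with the highest log2 ratio were *ROBO3* (0.35), *PLXNB1* (0.28), *EPHA8* (0.26), *PLXNA1* (0.26) and *NTN3* (0.23). For *ROBO3* and *EPHA8* too, the highest peaks of the lists were different ones, while the same peak was the highest in both lists at 44 genes. Of the 63 counting intervals, 1 lay below 0 (*SEMA6C*) and 1 above (*PLXNA1*).

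Fold enrichment depends on the local background. Against the genome-wide background of each list, the median log2 ratio of the guidance genes was -0.17, with 19 higher and 44 lower. That of all genes was 0.08, with 8590 higher and 6112 lower. This measure was chosen after seeing the data. On it the group medians ran from -0.48 at the membrane semaphorins, with 10 of 13 lower, to 0.19 at the slits, with 2 of 2 higher. The roundabout receptors had 0.14 with 3 of 4 higher. Of these, *ROBO3* and *ROBO4* share the peaks behind their log2 ratio of 0.21, so the 4 are not separate values.

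**Figure D4:**
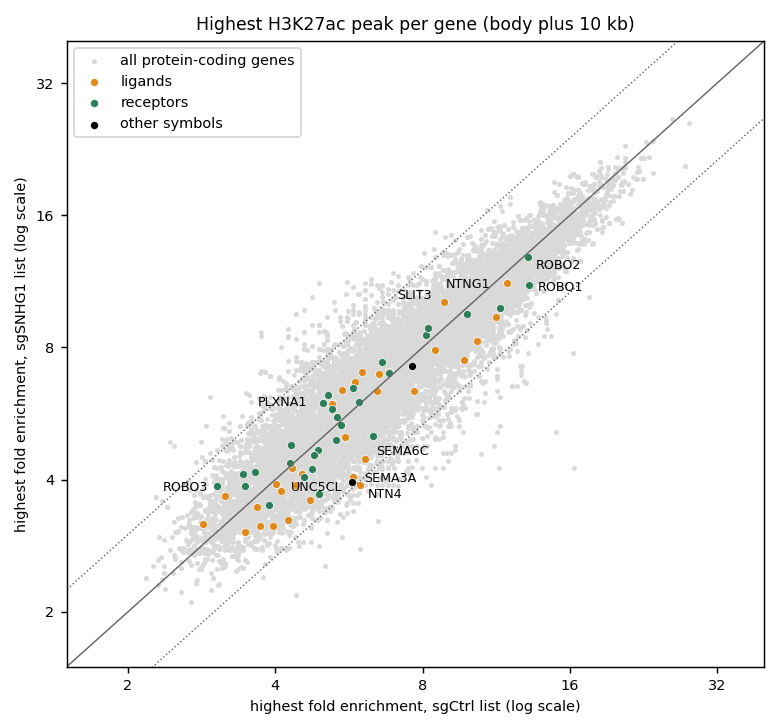
Highest fold enrichment per gene in the sgCtrl list (x) and the sgSNHG1 list (y), on log axes, for all protein-coding genes with a peak in both lists (grey), ligands (orange), receptors (green) and *UNC50* and *UNC5CL* (black). The solid line is equality and the dotted lines are 1.5-fold either way. Of the 63 guidance genes only *NTN4* lies past a dotted line, and 38 lie below the solid line.

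Peaks were called shared when they overlapped between the lists by 1 bp or more. Among the 443 sgCtrl peaks this held for 250 (56.4%, 51.8 to 61.0), and the 61.3% of all peaks lay just above this interval. Of the 323 sgSNHG1 peaks, 257 overlapped an sgCtrl peak (79.6%, 74.8 to 83.6), against 79.4%. Shared peaks of the sgCtrl list had a median fold enrichment of 3.55 and the others of 3.03. At the 250 shared peaks the median log2 ratio was -0.04, as in all 38677 pairs (-0.03). By 1.5-fold or more, 2 were higher (background 1.74%) and 3 lower (background 2.6%), and the counting interval lay above 0 at 7 (background 4.04%) and below 0 at 4 (background 3.58%). The lower 3 were intron peaks of *ROBO1* (7.64 and 4.07, log2 ratio -0.91, -1.65 to -0.17), *ROBO2* (8.31 and 4.77, -0.80, -1.49 to -0.11) and *UNC5B* (3.61 and 2.40, -0.59, -1.01 to -0.18). The higher 2 were an intron peak of *NRP2* (2.37 and 3.58, 0.59, 0.10 to 1.09) and a peak beside *NTN3* at the start site of *TBC1D24* (2.46 and 4.97, 1.02, 0.66 to 1.38). In the latter case 1 sgSNHG1 peak spanned 2 sgCtrl peaks, the other of which had 3.93.

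**Figure D5:**
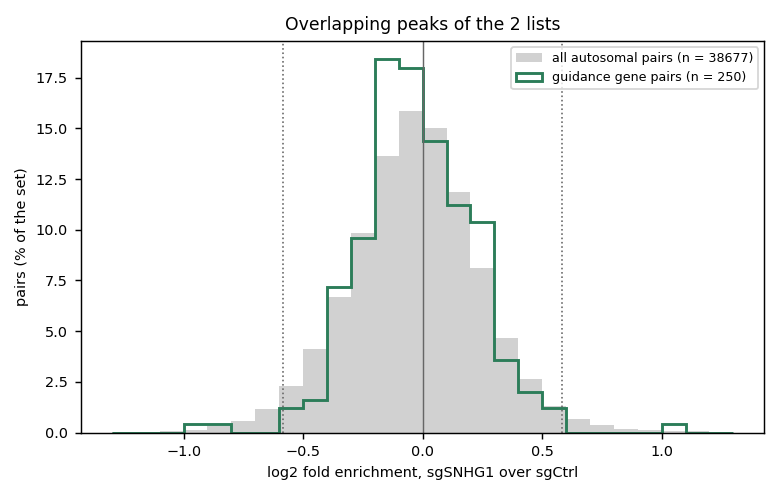
Distribution of the log2 ratio of fold enrichment, sgSNHG1 over sgCtrl, in percent of each set, over 38677 pairs of overlapping autosomal peaks (grey) and the 250 pairs at guidance genes (green outline). The dotted lines mark 1.5-fold, the medians are -0.03 and -0.04, and 5 of the 250 guidance pairs lie past a dotted line.

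How often each 30-base word of the DNA around a summit occurs on chromosomes 1 to 22, on both strands, was counted as a measure of repeated sequence. Among the shared intron peaks that differed by 1.5-fold or more, the median was 121 copies at *ROBO2*, 3 at *ROBO1* and 1 at both *UNC5B* and *NRP2*. Reads at the *ROBO2* peak, and to a lesser degree at the *ROBO1* peak, can therefore belong to other places of the genome, and both differences are uncertain. For some of the peaks in single-copy sequence that differed most, the DNA is shown as 300 bases around the summit (GRCh38), in lower case. The E-box CANNTG and the GATA motif AGATAA or its complement TTATCT are in capitals. The *UNC5B* peak is not among those shown. The shared intron peak of *NRP2* had the highest log2 ratio among intron peaks.
NRP2 intron, chr2:205746615-205746914, plus strand: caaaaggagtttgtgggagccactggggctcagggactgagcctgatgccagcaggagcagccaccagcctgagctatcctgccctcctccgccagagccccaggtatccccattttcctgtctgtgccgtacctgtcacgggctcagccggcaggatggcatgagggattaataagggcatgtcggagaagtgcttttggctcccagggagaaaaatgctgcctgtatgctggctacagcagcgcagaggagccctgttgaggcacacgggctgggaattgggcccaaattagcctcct
The *NRP2* window has a GC content of 59.3% with 7 CpG, and it holds neither motif.

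The highest sgCtrl intron peaks with no sgSNHG1 counterpart were at *SEMA5A* (fold enrichment 6.08, 43 fragments), *NTN4* (5.96, 38 fragments) and *UNC5C* (5.89, 35 fragments). The *NTN4* peak is the one of these in single-copy sequence.
NTN4 intron, chr12:95672205-95672504, plus strand: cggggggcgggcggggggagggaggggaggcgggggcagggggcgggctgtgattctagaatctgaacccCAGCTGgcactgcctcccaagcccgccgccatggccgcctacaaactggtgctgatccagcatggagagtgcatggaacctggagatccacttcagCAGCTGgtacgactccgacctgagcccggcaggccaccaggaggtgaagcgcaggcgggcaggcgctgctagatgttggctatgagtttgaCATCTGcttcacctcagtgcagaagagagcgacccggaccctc
The *SEMA5A* and *UNC5C* peaks lie in repeated sequence, with medians of 136 and 27 copies per word, and the *NTN4* window, with 1, lies over the processed pseudogene *PGAM1P5*. The other peaks among the 5 highest were a second *UNC5C* intron peak (5.40), also in repeated sequence with a median of 36 copies, and a *PLXNA4* intron peak (5.44).

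The highest sgSNHG1 intron peaks with no sgCtrl counterpart were at *SEMA6D* (fold enrichment 6.89, 38 fragments) and *ROBO2* (5.95 and 5.67, with 34 and 32 fragments). The windows of *SEMA6D* and of the lower *ROBO2* peak are centred on the sgSNHG1 summit.
SEMA6D intron, chr15:47348845-47349144, plus strand: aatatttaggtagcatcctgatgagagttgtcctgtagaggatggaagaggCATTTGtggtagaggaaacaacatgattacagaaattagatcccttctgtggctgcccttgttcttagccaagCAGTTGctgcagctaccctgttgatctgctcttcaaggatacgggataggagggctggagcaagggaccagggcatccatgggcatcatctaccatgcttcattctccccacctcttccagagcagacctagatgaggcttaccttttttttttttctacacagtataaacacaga
ROBO2 intron peak of 5.67, chr3:77415458-77415757, plus strand: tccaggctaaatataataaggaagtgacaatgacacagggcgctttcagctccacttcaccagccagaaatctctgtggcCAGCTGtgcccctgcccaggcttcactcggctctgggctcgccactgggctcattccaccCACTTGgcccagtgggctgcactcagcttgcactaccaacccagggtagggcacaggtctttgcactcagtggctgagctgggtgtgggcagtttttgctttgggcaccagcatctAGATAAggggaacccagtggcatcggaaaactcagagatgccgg
The *ROBO2* window holds the GATA motif once and CANNTG 2 times, and the *SEMA6D* window holds CANNTG 2 times. The median was 5 copies at the other *ROBO2* peak. The others of the 5 highest were a peak beside *EPHA6* at the start site of *ARL6* (6.48) and an intron peak of *NRP1* (5.16).

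Over all guidance peaks, 6.77% of the sgCtrl summits (30 of 443) and 6.5% of the sgSNHG1 summits (21 of 323) lay in sequence with a median above 1 copy, against 15.2% and 15.4% of every 30th peak of the lists. Among sgCtrl intron peaks it was 12.8% of those without counterpart and 12.2% of the shared. In sgSNHG1 intron peaks it was 19.4% of those without counterpart and 8.42% of the shared. In the 300 bases around the summit, CANNTG was found on either strand in 76.1% of sgCtrl guidance peaks and 77.1% of all sgCtrl peaks, and AGATAA in 2.71% and 2.54%. Of the 66 sgSNHG1 guidance peaks without counterpart, 89.4% held CANNTG and 6.06% AGATAA, against 80.1% and 5.14% of all such sgSNHG1 peaks. CACGTG, which CANNTG includes, was in 7.58% against 5.86%.

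Other genes of guidance cue signalling were read from a list of 40 genes outside the set. The list holds downstream genes, such as the collapsin response mediators, and also further cues and receptors, such as *NTN5* and *DSCAM*. They held 367 peaks in sgCtrl and 303 in sgSNHG1. A start-site peak was in both lists at 33, only in sgCtrl at 2 (background 4.93%) and only in sgSNHG1 at 1 (background 3.18%). Of the 40, 27 had fewer peaks in sgSNHG1 and 9 more, against 46.1% and 18.1% of all genes with a peak. The median log2 ratio of the highest fold enrichment was 0.08, against 0.02 over all genes. By 1.5-fold 1 of 38 was higher (background 1.73%) and 0 were lower (background 1.62%). The 1 was *LIMK1*, the kinase of the actin regulator cofilin, from 3.72 to 6.08, and *DPYSL2*, which mediates semaphorin responses, had 20 and 17 peaks with 8.60 and 10.2.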

How the data were processed

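H3K27ac ChIP-seq peak lists of SK-N-BE(2)C cells were used, 1 for sgCtrl and 1 for sgSNHG1, each made from 2 samples. Reads were trimmed with cutadapt and aligned to GRCh38 with BWA (submitters' processing notes), then the authors combined the replicates and called peaks with MACS2 at a p-value of 1e-06, with duplicates kept. Versions are not given in the sources used here, nor is an input control. The deposited values are fold enrichment (a ratio of summit fragments to local background), −log10 of the p-value and of the q-value, and a score made from the p-value. All came from the authors' peak caller on pooled reads. The q-values and scores were not analysed. Depth per sample and values per replicate are unknown, so no test was run.

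Peaks on chromosomes 1 to 22 were set against GENCODE release 44. Overlap meant at least 1 bp. Summit fragments were recovered from fold enrichment and −log10 p, whole within 0.01 for 99.9% of peaks in each list. Intervals (95%) are Wilson for shares and log-normal for ratios of counts. The summit interval treats fragments as independent, which duplicates and the choice of the highest peak make too narrow. Genes were named as those with differing start-site states, the 10 with the most peaks, the 5 most extreme ratios in each direction, those without peaks, and the 5 highest unshared and 3 highest peaks per list, others being picked later. The members and lists were chosen with earlier results of these data known. The tools were matplotlib 3.10.9, scipy 1.17.1, pandas 2.3.3, numpy 2.4.6 and Python 3.11.15. The computations were tested on simulated data. Some sequences are not reported here. Alternative windows, thresholds, list sizes and overlap rules were tried.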

Additional observations from a re-analysis of the deposited data

How the results depend on the processing

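No paired analysis was possible because the deposited lists pool both replicates, and leaving out a replicate was not run for the same reason. With lists of equal size, cut by −log10 p, the ratio of peak numbers went from 0.729 to 0.961, the shared share to 66.1% of sgCtrl and 71.2% of sgSNHG1 peaks, and start-site peaks were only in sgCtrl at 2 genes and only in sgSNHG1 at 4. The lower peak number and the excess of sgCtrl-only start sites thus depend on the size of the lists. An overlap of 50% of both peaks gave shares of 45.8% and 62.8%, and peaks within 1 kb gave 63.9% and 86.4%. At a −log10 p of at least 10, 1 gene had a start-site peak only in sgSNHG1, namely *SEMA4F*, and neither *SEMA3D* nor *EPHA8* kept one. Only in sgCtrl it was found at 4 genes, *EPHA10*, *ROBO4*, *EPHB1* and *SEMA7A*. *SEMA3B*, *SEMA3G*, *SEMA4G* and *SEMA6B* dropped out. Fold enrichment times length, summed over the window, gave a median log2 ratio of -0.47 with 2 genes 1.5-fold higher and 27 lower. For *PLXNA1* it gave -0.38, which is a reversed sign. No share over all genes was computed for this measure, which depends on the number and length of peaks. Beyond the counting interval it also turned the sign at *EPHA8* (-0.87), *SLIT3* (-0.59), *UNC5A* (-0.58), *SEMA3G* (-0.86), *ROBO4* (-0.81) and *UNC5C* (-1.60), and peaks in the gene body alone turned it at *NTN3* (-0.32) and *UNC5C* (-0.51). Over all alternatives, *NTNG1*, *PLXNA4*, *PLXND1*, *SEMA3B* and *SEMA4G* turned sign within the interval. Fragments over the genome-wide background (added after seeing the data) gave a median log2 ratio of -0.17, against 0.08 over all genes. By 1.5-fold 1 gene was higher and 10 lower, and the shares over all genes were not computed. Recovered fragments, without a correction for depth, gave a median log2 ratio of -0.28 at shared peaks. Of these, 77.2% had fewer fragments in sgSNHG1, against 66.2% of all shared peaks. Alternatives added after seeing the data were the removal of *UNC50*, *UNC5CL* and *EFNA4-EFNA3*, of peaks at start sites of other genes, and of *UNC5C*, *EPHA5*, *EPHB2* and *SLIT3*. Of the alternative values of the summary results, 40 stayed within their interval or 1.5 times the count, and 17 moved beyond it. Among the 40 is the count of 4 sgCtrl-only genes at a −log10 p of at least 10. Few fragments at many summits leave wide counting intervals for single genes.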
